A study of Mus musculus with 4 samples.

Results

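Cell cycle genes were described across the cell classes of mouse small intestine and lung and in clusters of attached cells from both tissues. The 46 genes came from a named list and were not picked by a cut on their values, but the list was chosen with earlier results of these data known. All 46 were in each of the 4 count tables, which together hold 22005 gene symbols. Of these, 20 act in or around S phase, 25 act in G2 or mitosis, and Stmn1, a protein that destabilises microtubules and is abundant in dividing cells, was put in neither list. The samples were small intestinal epithelium and whole lung of C57BL/6J mice, an inbred strain. Each tissue, broken up mechanically and with enzymes, gave 1 Chromium Single Cell 3′ v3 library of singlets (single cells) and 1 of multiplets (clusters of attached cells sharing a barcode), with no treatment named. Age and the number of animals are not given in the sources used here, nor is the way singlets and multiplets were parted. Each group is thus 1 library, so no comparison could be tested, and every interval given (95%, exact) covers counting error only.

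A dividing cell copies its DNA in S phase and parts the copies in mitosis. Genes for licensing origins, for the replication fork and for making nucleotides are switched on by E2F factors around the start of S phase, while genes for the spindle, the kinetochore and the cyclin B kinase are switched on later, in G2. In the intestinal crypt, stem cells feed a zone of fast-dividing transit amplifying cells whose progeny stop dividing as they become enterocytes or secretory cells, whereas most cells of the adult lung divide rarely.

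A barcode was called S-positive with at least 3 UMIs (unique molecular identifiers, each standing for 1 captured transcript) summed over the 20 S genes, after every barcode had been thinned at random to 1500 UMIs. It was called G2/M-positive with at least 3 over the 25 G2/M genes, and cycling with either. Intestinal singlets had a median of 8759 UMIs, intestinal multiplets 12603, lung singlets 7896 and lung multiplets 11934. Pairs of libraries shared between 2 and 15 barcode sequences. Classes are the authors' own and were made from the same cells, so differences between classes are descriptions. Each of the 6 epithelial marker lists of the intestine was highest in the class of its name, and T cell, B cell and myeloid lists reached at most 25.99 CPM (a gene's UMIs scaled to a fixed total per library or class) in any intestinal class.

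Cycling barcodes made up 44.4% of intestinal singlets (2344 of 5279, 43.1 to 45.8%) and 47.5% of intestinal multiplets (1744 of 3671, 45.9 to 49.1%). In the lung they made up 2.84% of singlets (173 of 6084, 2.44 to 3.29%) and 6.68% of multiplets (316 of 4729, 5.99 to 7.43%). The order of the tissues was the same in both kinds of library. Within each tissue the 2 intervals did not overlap, though in the intestine they nearly met. Without thinning the shares were 72.6%, 75.3%, 44.0% and 65.1%, in the same order, but 16.8% of enterocytes and 47.5% of ciliated cells then passed as well. Background was read at 1500 UMIs from classes that do not divide. No enterocyte was cycling (0 of 191, which allows a share of up to 1.57%, median 11039 UMIs), and 1 of 181 ciliated cells was (0.552%, median 10193 UMIs). Many barcodes lay at the limit: 411 cycling intestinal singlets had exactly 3 UMIs in their higher list and 507 others had 2, and in lung singlets these numbers were 118 and 476. Hmgb2, Dut and Slbp are also expressed outside the cycle. Leaving these 3 out gave 36.2% of intestinal singlets, 40.5% of intestinal multiplets, 0.855% of lung singlets and 4.19% of lung multiplets.

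Along the intestinal lineage the share of cycling barcodes was highest in Transit amplifying, lower in the class labelled Stem and in Progenitor early, and near 0 in enterocytes. Of 587 Stem barcodes 22.8% were cycling (19.5 to 26.4%), of 1048 Transit amplifying barcodes 96.6% (95.3 to 97.6%) and of 1162 Progenitor early barcodes 74.2% (71.6 to 76.7%). The share was 9.75% in Progenitor late-1 (71 of 728, 7.70 to 12.1%) and 1.48% in Progenitor late-2 (3 of 203). The Stem share depended on the setting: it was 46.3% with 2 UMIs for a call, 6.64% with 5, 51.5% at 3000 UMIs per barcode and 14.3% without Hmgb2, Dut and Slbp, each time below Progenitor early. Progenitor late-1 ranged from 4.12% to 20.9% over those settings. The 2 calls did not move together along this path. Stem barcodes were S-positive in 20.8% (17.6 to 24.3%) and G2/M-positive in 3.41% (2.09 to 5.21%). Transit amplifying barcodes were S-positive in 70.7% and G2/M-positive in 73.9%, with both in 48.0%. Progenitor early barcodes were S-positive in 28.2% (25.7 to 30.9%) and G2/M-positive in 57.6% (54.7 to 60.4%), and Progenitor late-1 barcodes in 0.549% and 9.20%. So S-positive barcodes outnumbered G2/M-positive ones in the Stem class, and the reverse held in Progenitor early and Progenitor late-1, with intervals that did not overlap. In Progenitor late-2 the intervals overlapped. Stem barcodes were shallower than Transit amplifying ones before thinning, with medians of 6199 and 10609 UMIs.

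**Figure D1:**
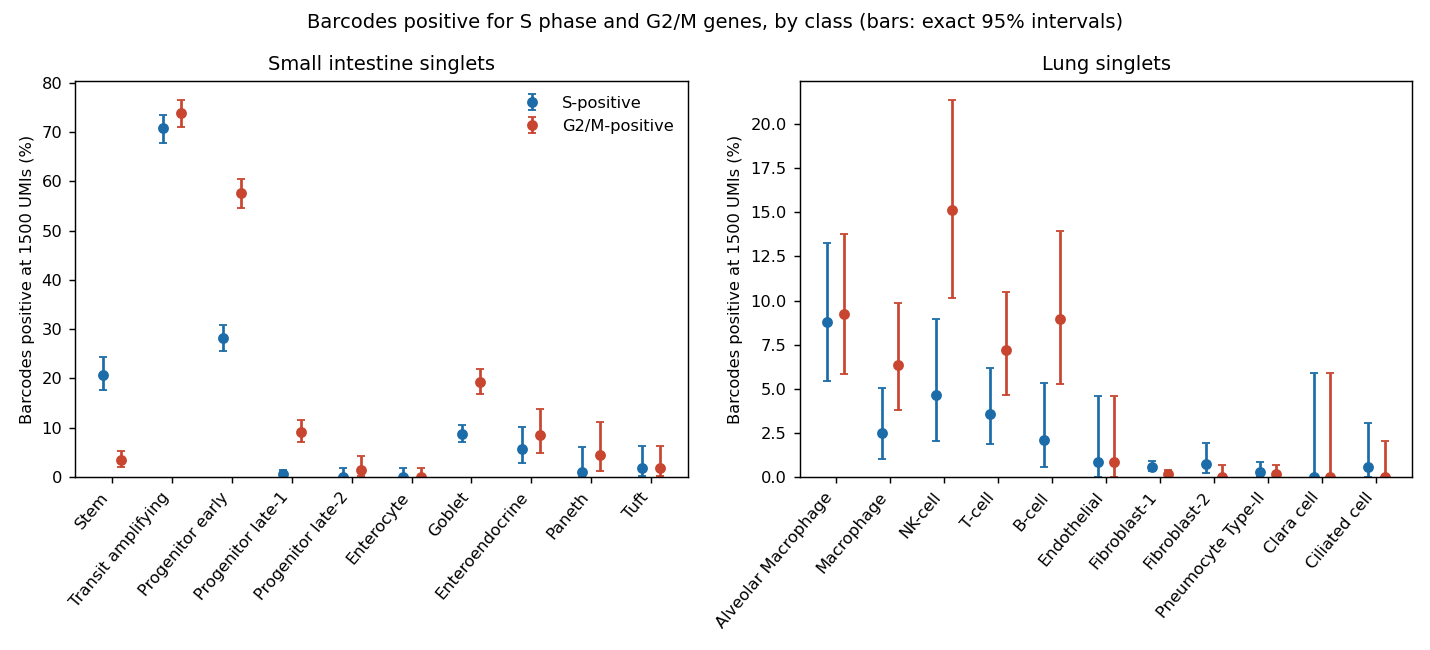
Share of barcodes in percent (vertical axis) that were S-positive (blue) or G2/M-positive (red) at 1500 UMIs in each class of at least 50 barcodes, with exact 95% intervals as bars, for intestinal singlets (left) and lung singlets (right, on its own scale). Stem lies at 20.8% for S and 3.41% for G2/M, Progenitor early at 28.2% and 57.6%, and no lung class passes 15.1% in either call.

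Secretory classes also held cycling barcodes. Goblet barcodes, cells of the mucus lineage, were cycling in 23.6% (232 of 985, 20.9 to 26.3%). This interval overlapped that of Stem, but the order of these classes turned with the setting, with Goblet at 31.4% with 2 UMIs for a call, 31.05% at 3000 UMIs and 15.2% with 5 UMIs. They were G2/M-positive in 19.3% and S-positive in 8.73%. All 232 had the goblet marker list (at least 2 UMIs of Muc2, Tff3, Agr2 and Fcgbp at 1500 UMIs), as had all 753 other goblet barcodes. The list summed to 46959 CPM in the 232 and 77334 CPM in the others. The stem list was read in 9.05% of the 232 and 3.72% of the others. Enteroendocrine barcodes, hormone-producing cells, were cycling in 13.1% (23 of 175, 8.52 to 19.1%), which was 4.0% (7 of 175) without Hmgb2, Dut and Slbp and 2.29% with 5 UMIs for a call. Of those 23 only 6 had the enteroendocrine list, 15 had the goblet list and 14 the stem list, whereas 109 of the 152 others had the enteroendocrine list and 16 the stem list. Part of that class thus lacked its defining markers where the cycle genes were high, and the part this plays in the share was not tested. Paneth cells, the antimicrobial cells of the crypt base, were cycling in 4 of 88 barcodes and tuft cells in 3 of 112 (3 and 1 without those genes).

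The step from Stem to Transit amplifying set the G2/M genes apart from the S genes. Differences were called by size alone, at more than 1.5-fold, where a gene had 50 UMIs or more in at least 1 of the classes. Of the 46 genes 44 were higher in Transit amplifying and none lower, against 14.3% of all 9315 genes counted that were higher and 11.4% lower, with a median ratio of 1.01 over all genes. The 25 G2/M genes were all higher, with a summed ratio of 14.1 (13.4 to 14.9) and a median of 25.2. Of the 20 S genes 18 were higher, with a summed ratio of 2.59 (2.50 to 2.68) and a median of 2.68. Genes with very few UMIs in Stem were counted only through Transit amplifying, where they were high, and could not be called lower. The counts of higher genes at this step thus describe and do not support. The summed ratios take in every gene of each list. The summed ratio of the G2/M genes stood well above that of the S genes, and their intervals did not overlap.

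Within the S list, 4 subunits of the replicative helicase differed least. Mcm2, a helicase subunit, had 59.7 CPM in Stem and 59.3 CPM in Transit amplifying, a ratio of 0.993 (0.850 to 1.16). Mcm4 had 65.6 and 93.8 CPM (ratio 1.43, within the limit), Mcm6 127 and 195 CPM (1.53) and Mcm7 94.0 and 156 CPM (1.66). Cdt1, which loads the helicase, had a ratio of 1.68. Among these, Mcm2 and Mcm4 stayed within the limit and the others lay past it. Cdc6, the other loader, differed more, with 2.79 and 33.0 CPM (ratio 11.8, 6.35 to 24.9). Ccne1, the cyclin E that drives entry into S phase, had 3.07 and 37.0 CPM (ratio 12.1, 6.68 to 24.4). Genes for making nucleotides spread widely. Rrm2, the regulated subunit of ribonucleotide reductase, had 3.35 and 161 CPM, a ratio of 48.1 (27.4 to 93.2). Tk1, thymidine kinase, had 6.97 and 106 CPM (15.3), Tyms, thymidylate synthase, 72.5 and 335 CPM (4.62), and Dut, which removes dUTP, a ratio of 2.31.

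Among the G2/M genes, the mitotic cyclin Ccnb1 had 1 UMI in all Stem barcodes and 728 in Transit amplifying ones, at 0.279 and 65.8 CPM (ratio 236, 42.2 to 9325). Mki67, a coat protein of mitotic chromosomes used as a proliferation marker, had 15.1 and 350 CPM (23.2, 17.8 to 31.0). Top2a, which untangles copied DNA, had 20.9 and 497 CPM (23.8). The passenger complex, which corrects chromosome attachment, had ratios of 51.1 for Birc5, 47.6 for Aurkb and 11.9 for Cdca8. The smallest ratio in the G2/M list was that of Hmgb2, a DNA-bending protein, at 7.34, with 186 and 1368 CPM. Stmn1 had 801 and 1655 CPM (2.07, 1.99 to 2.15).

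From Transit amplifying to Progenitor early, 38 of the 46 genes were lower and 1 higher, against 7.97% and 2.67% of all 9392 genes counted, whose median ratio was 1.0. The summed ratio was 0.452 for the S genes and 0.577 for the G2/M genes. The G2/M genes split here. Top2a had 497 and 77.7 CPM (ratio 0.156, 0.145 to 0.169), Aurkb 133 and 14.5 CPM (0.109) and Kif11, the motor that pushes spindle poles apart, 124 and 28.0 CPM (0.226). Ccnb2, a B-type cyclin, was the gene that was higher, with 111 CPM in Transit amplifying and 190 CPM in Progenitor early (1.71, 1.59 to 1.84). Cenpa, the histone that marks centromeres, had 159 and 227 CPM (1.43), Cdc20, which starts anaphase, 106 and 139 CPM (1.31), and Ccnb1 65.8 and 82.7 CPM (1.26). Those 3 stayed within the limit of 1.5-fold, with intervals above 1. In the S list, Mcm2 (0.804) and Mcm4 (0.677) were again within the limit, while Rrm2 had the lowest ratio at 0.113.

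From Progenitor early to Progenitor late-1 all 46 genes were lower, against 27.8% of 9148 genes and a median ratio of 0.879. The summed ratios were 0.172 for S and 0.173 for G2/M genes. Mcm5 had 55.7 and 2.41 CPM (ratio 0.0433) and Cdc20 139 and 8.13 CPM (0.0587). Pcna, the sliding clamp of DNA polymerase, was lower by the smallest factor, with 30.2 and 14.2 CPM (0.469, 0.367 to 0.593), followed by Slbp, which binds histone mRNA, at 0.428. In enterocytes 22 of the 46 genes still reached 50 UMIs in either class and 19 of those were lower than in Progenitor late-1, against 33.7% of 7730 genes and a median of 0.804. Pcna (0.846), Mcm6 (0.841) and Slbp (0.776) were the 3 within the limit. Genes that filled 50 UMIs only through the class where they were higher had to be lower in the other. The counts at both steps, to Progenitor late-1 and to enterocytes, thus describe and do not support.

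Other genes of the cycle were taken from lists of further S genes, further G2/M genes, G1 genes, inhibitors and transcription factors. From Stem to Transit amplifying, 17 of 19 further S genes and 22 of 22 further G2/M genes were higher, as were 7 of 8 transcription factors of the cycle, including Foxm1, which drives G2/M genes (ratio 21.5, 7.25 to 105, on 3 UMIs in Stem), and E2f1 (4.37). The limit on genes with very few UMIs in Stem holds for these counts too. Of 6 G1 cyclins and kinases, Cdk6 was lower (0.495) and Cdk2 higher (1.62). Of 10 inhibitors counted, 6 were higher, among them Cdkn2c (4.03) and Cdkn1a (3.30), and Btg1 (0.616) and Btg2 (0.364) were lower. At the step to Progenitor late-1, Cdkn2b (6.73, 5.99 to 7.59) and Cdkn1a (4.73, 4.13 to 5.42), which block the cyclin D and cyclin E kinases, were higher together with Rb1 (2.27), while all 6 G1 genes were lower. Cdkn1a was higher again in enterocytes (1.71), with Btg2 (2.17).

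**Figure D2:**
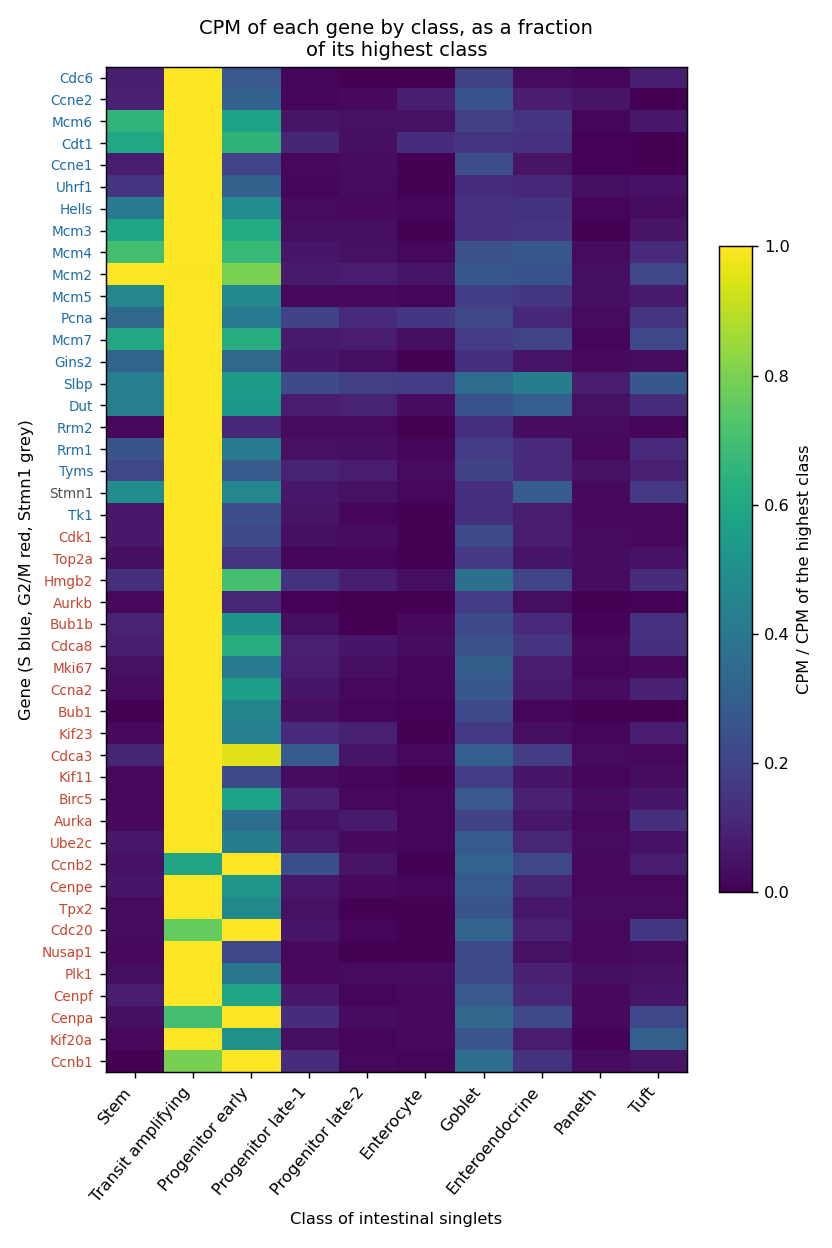
Heat map of the 46 genes (rows, S names blue, G2/M red, Stmn1 grey) in the 10 classes of intestinal singlets (columns), with colour showing CPM divided by that gene's CPM in its highest class, and genes ordered by their ratio between G2/M-only and S-only barcodes. Most genes are highest in Transit amplifying, the Mcm2, Mcm4 and Mcm6 rows are also bright in Stem, and Ccnb1, Ccnb2, Cdc20 and Cenpa are brightest in Progenitor early.

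The order of single genes along the cycle was read by sorting intestinal singlets into 2935 barcodes that were neither S- nor G2/M-positive, 600 S-only, 694 with both and 1050 G2/M-only, leaving each gene out of the call when its own level was taken. Since the other genes of a list sort the barcodes, a gene's side is partly set by the sorting, and what the data add is its place within its list. All 25 G2/M genes were higher in G2/M-only than in S-only barcodes, against 8.15% of 9865 genes, with a median ratio of 8.74 (1.02 over all genes). Of the 20 S genes 16 were higher in S-only barcodes, against 8.03% of genes, with a median ratio of 0.292, and none was higher in G2/M-only ones. Genes that took no part in the sorting lay on the same sides: 16 of 19 further S genes were higher in S-only barcodes, and 20 of the 21 further G2/M genes with enough UMIs were higher in G2/M-only ones.

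Origin licensing lay at the S end. Cdc6 had 2.38 CPM in neither, 36.6 in S-only, 31.3 in both and 6.83 in G2/M-only barcodes, a ratio of 0.186 (0.139 to 0.247). Mcm6 had 42.6, 249, 199 and 59.2 CPM in the same order (0.238), and all 6 Mcm genes, Cdc6, Cdt1 and Hells, a chromatin remodeller, were highest in S-only barcodes. Of the enzymes of nucleotide supply, 4 lay later, while Dut (0.494, 0.464 to 0.527) was higher in S-only barcodes. Rrm2 had 6.24, 72.4, 179 and 50.2 CPM (0.694, 0.606 to 0.796) and was highest in barcodes with both calls. Rrm1 (0.732), Tyms (0.883) and Tk1 (0.945) were likewise highest there, and these were the 4 S genes within the limit. Their intervals did not overlap those of the Mcm genes. In the G2/M list, Cdk1, the mitotic kinase, had the lowest ratio (2.39), followed by Top2a with 13.5, 116, 465 and 315 CPM (2.73) and Hmgb2 (3.15). Cdk1, Top2a, Mki67, Aurkb and Kif11 were highest in barcodes with both calls, and the other 20 in G2/M-only ones. Ccnb1 lay at the far end with 3.05, 4.60, 51.5 and 140 CPM (30.5, 20.2 to 48.2), followed by Kif20a, a motor of cell division (29.8), Cenpa (22.6), Cenpf, a kinetochore protein (19.97), and Plk1, a mitotic kinase (15.9). Stmn1 did not separate the groups (0.905).

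**Figure D3:**
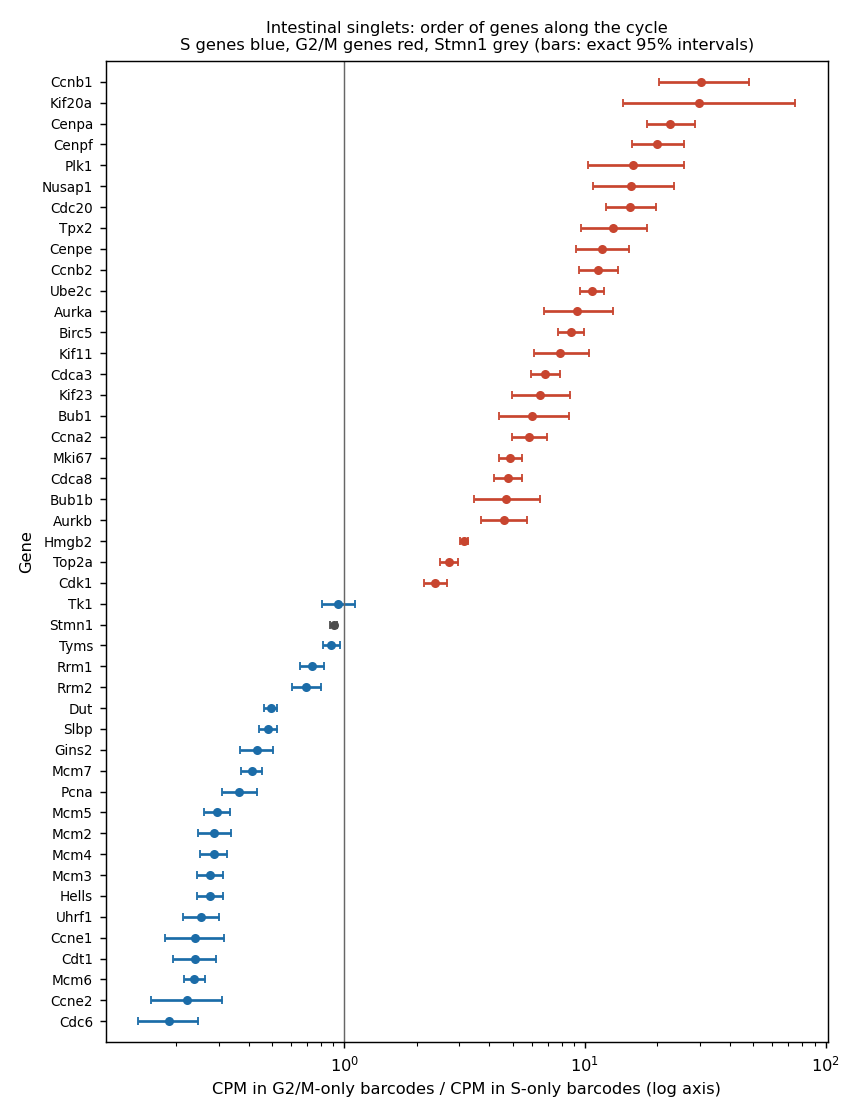
Ratio of CPM in G2/M-only barcodes to CPM in S-only barcodes for each of the 46 genes in intestinal singlets (log axis), with exact 95% intervals as bars, S genes blue, G2/M genes red and Stmn1 grey. The genes run from Cdc6 at 0.186 through Tk1 at 0.945 and Cdk1 at 2.39 to Ccnb1 at 30.5.

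Regulators had places in the same order. E2f1 had 4.42, 39.3, 32.6 and 5.39 CPM (0.137) and Foxm1 0.626, 1.80, 19.2 and 12.5 CPM (6.96). The inhibitors Cdkn1a (174, 27.0, 41.6 and 47.1 CPM) and Cdkn2b (111, 9.01, 13.4 and 53.5 CPM) were highest in barcodes with neither call, as was Btg2 (338, 102, 89.8 and 140 CPM). Cdkn2d, another inhibitor of the cyclin D kinases, differed from them, with 7.08, 2.60, 26.8 and 27.5 CPM.

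The same sorting in intestinal multiplets gave 18 of 20 S genes higher in S-only barcodes (5.99% of 10083 genes) and 25 of 25 G2/M genes higher in G2/M-only ones (6.11%), with medians of 0.343 and 5.17. Cdc6 (0.153) and Ccnb1 (14.1) again lay at the ends, and Tk1 had 1.01. In lung multiplets, which had 65 S-only, 77 both and 174 G2/M-only barcodes, 12 of the 17 S genes with enough UMIs were higher in S-only barcodes and 1 in G2/M-only ones, against 10.6% and 12.1% of 8368 genes. That gene was Rrm2, with 1.10, 27.3, 328 and 54.4 CPM (1.99). All 25 G2/M genes were higher in G2/M-only barcodes there, and 16 S genes and 19 G2/M genes were highest in barcodes with both calls. In a multiplet, S and G2/M transcripts of 1 barcode need not come from 1 cell.

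Promoters of S and G2/M genes are shown because the lists differ in the short words they carry. RefSeq promoters, 250 bases before to 50 after the start on GRCm38.p6, were matched for 38 of the 46 genes, and both strands were searched. E2F-like words (TTTCCCGC, TTTGGCGC, TTTCGCGC or TTTGCCGC) were in 42.1% of the S promoters (8 of 19, from 17 genes), 4.76% of the G2/M promoters (1 of 21) and 2.26% of all 32851 promoters. CHR words (cell cycle genes homology region, TTTGAA or TTCGAA) were in 10.5%, 81.0% (17 of 21) and 19.2%. CCAAT was in 63.2%, 90.5% and 37.4%, and CHR words together with CCAAT in 10.5%, 81.0% and 7.52%. Of the further G2/M genes, 60.9% of 23 promoters had both and 0 of 23 an E2F-like word. Not every gene had them: Ccnb1, at the far end of the order, had CCAAT and no CHR word in this window. A match is a description of letters and not a bound site. Shown are the 200 bases before the start, 5′ to 3′ on the gene's strand, for the 3 S genes with the lowest ratio among those with an E2F-like word there and the 3 G2/M genes with the highest ratio among those with CHR and CCAAT words there, so they were picked for holding the words. Capitals mark E2F-like words in the S genes and CHR and CCAAT words in the G2/M genes, on either strand. Uhrf1 has another RefSeq promoter, at chr17:56303087-56303386, without an E2F-like word. The Cdc6 and Uhrf1 windows lie downstream of the outermost annotated starts of these genes, chr11:98907801 and chr17:56303321. The windows are Cdc6 at chr11:98907951-98908150 (+ strand), Mcm6 at chr1:128359706-128359905 (− strand), Uhrf1, which maintains DNA methylation, at chr17:56304113-56304312 (+), Cdc20 at chr4:118437344-118437543 (−), Ccnb2 at chr9:70421555-70421754 (−) and Ube2c, the ubiquitin enzyme that works with Cdc20, at chr2:164769729-164769928 (+).
Cdc6: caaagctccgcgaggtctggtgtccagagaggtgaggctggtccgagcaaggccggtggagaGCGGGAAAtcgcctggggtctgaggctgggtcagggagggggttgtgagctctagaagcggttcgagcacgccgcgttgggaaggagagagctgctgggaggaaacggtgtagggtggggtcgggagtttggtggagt
Mcm6: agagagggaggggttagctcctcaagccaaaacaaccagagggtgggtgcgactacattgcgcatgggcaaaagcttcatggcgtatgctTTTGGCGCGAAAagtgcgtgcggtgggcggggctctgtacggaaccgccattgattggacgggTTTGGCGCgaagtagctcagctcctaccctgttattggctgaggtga
Uhrf1: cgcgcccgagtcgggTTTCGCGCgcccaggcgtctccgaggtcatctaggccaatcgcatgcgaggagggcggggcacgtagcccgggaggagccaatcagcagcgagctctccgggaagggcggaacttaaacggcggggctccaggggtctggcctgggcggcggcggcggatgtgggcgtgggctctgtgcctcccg
Cdc20: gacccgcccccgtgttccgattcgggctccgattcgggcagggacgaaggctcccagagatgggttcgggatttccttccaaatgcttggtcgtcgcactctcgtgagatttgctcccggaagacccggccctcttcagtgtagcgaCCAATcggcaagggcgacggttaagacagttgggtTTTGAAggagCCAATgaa
Ccnb2: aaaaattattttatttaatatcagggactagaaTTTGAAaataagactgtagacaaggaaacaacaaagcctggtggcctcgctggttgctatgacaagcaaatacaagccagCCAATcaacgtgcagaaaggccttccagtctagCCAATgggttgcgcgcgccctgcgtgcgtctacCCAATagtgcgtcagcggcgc
Ube2c: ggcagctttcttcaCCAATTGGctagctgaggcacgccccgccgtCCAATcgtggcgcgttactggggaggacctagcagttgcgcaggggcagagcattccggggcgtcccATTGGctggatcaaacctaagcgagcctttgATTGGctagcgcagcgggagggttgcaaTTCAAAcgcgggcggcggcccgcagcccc
The 6 genes had ratios of 0.186, 0.238 and 0.253 (S) and 15.4, 11.3 and 10.7 (G2/M) between G2/M-only and S-only intestinal singlets.

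Summed levels told the classes apart by their balance. In intestinal singlets the S genes summed to 1091 CPM and the G2/M genes to 2375 CPM, a ratio of 0.459 (0.455 to 0.464). Stem had 1021 and 391 CPM (2.62, 2.46 to 2.78), Transit amplifying 2642 and 5515 CPM (0.479), Progenitor early 1195 and 3182 CPM (0.376) and Goblet 543 and 1624 CPM (0.334). Stem was the only intestinal class with a ratio whose interval lay above 1. In enterocytes the sums were 113 and 116 CPM (0.970), which gives the level carried by cells without cycling barcodes. Transit amplifying barcodes, 19.9% of the library, held 56.1% of its S and 53.8% of its G2/M UMIs, while Stem barcodes, 11.1% of the library, held 7.02% and 1.23%.

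Lung singlets had lower sums, 244 CPM for S and 238 CPM for G2/M genes, and a ratio of 1.03 (1.0 to 1.05), which became 1.90 without Hmgb2, Dut and Slbp. Structural classes lay on the S side of this balance: Fibroblast-1 had 193 and 115 CPM (1.68), Fibroblast-2 234 and 78.3 CPM (2.98), Endothelial 284 and 151 CPM (1.88) and Pneumocyte Type-II, the surfactant-making epithelium, 168 and 143 CPM (1.17). Immune classes lay on the other side, from 0.585 in B-cell to 0.768 in NK-cell, but most of them crossed over without Hmgb2, Dut and Slbp. The ratio was then 4.06 (2.999 to 5.57) in NK-cell, 2.09 in Macrophage, 1.74 in T-cell and 1.45 (1.14 to 1.84) in B-cell. Only the whole Alveolar Macrophage class stayed below 1, at 0.712 (0.671 to 0.754). That class includes 9 barcodes without its marker list, as described below. With all genes kept, their S and G2/M sums were 3360 and 8743 CPM, against 561 and 707 CPM in the 218 with the list. Of the sums in the 218, Hmgb2 made up 239 CPM of G2/M, and Dut 40.1 and Slbp 83.3 CPM of S. Leaving these genes out thus takes more from the G2/M sum than from the S sum. Whether the class stays below 1 without Hmgb2, Dut and Slbp once those 9 are left out was not tested. In these structural classes few barcodes were cycling: 22 of 2964 Fibroblast-1 barcodes (0.742%), 4 of 528 Fibroblast-2, 4 of 1009 Pneumocyte Type-II and 2 of 119 Endothelial. No Clara cell barcode was (0 of 61, up to 4.92%), and none of 10 mesothelial and 6 type I pneumocyte barcodes. Their S sums thus came with few or no cycling barcodes, as did the 188 CPM of ciliated cells. Single genes stood out at low counts. Cdc6 was at 7.69 CPM in Fibroblast-1, against 4.98 CPM in Alveolar Macrophage and 3.43 CPM in Macrophage, and Ccnb2 was at 4.82 CPM there with Ccnb1 at 0. Bub1, a spindle checkpoint kinase, was at 9.01 CPM in Pneumocyte Type-II, where its partner Bub1b was at 2.22 CPM.

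**Figure D4:**
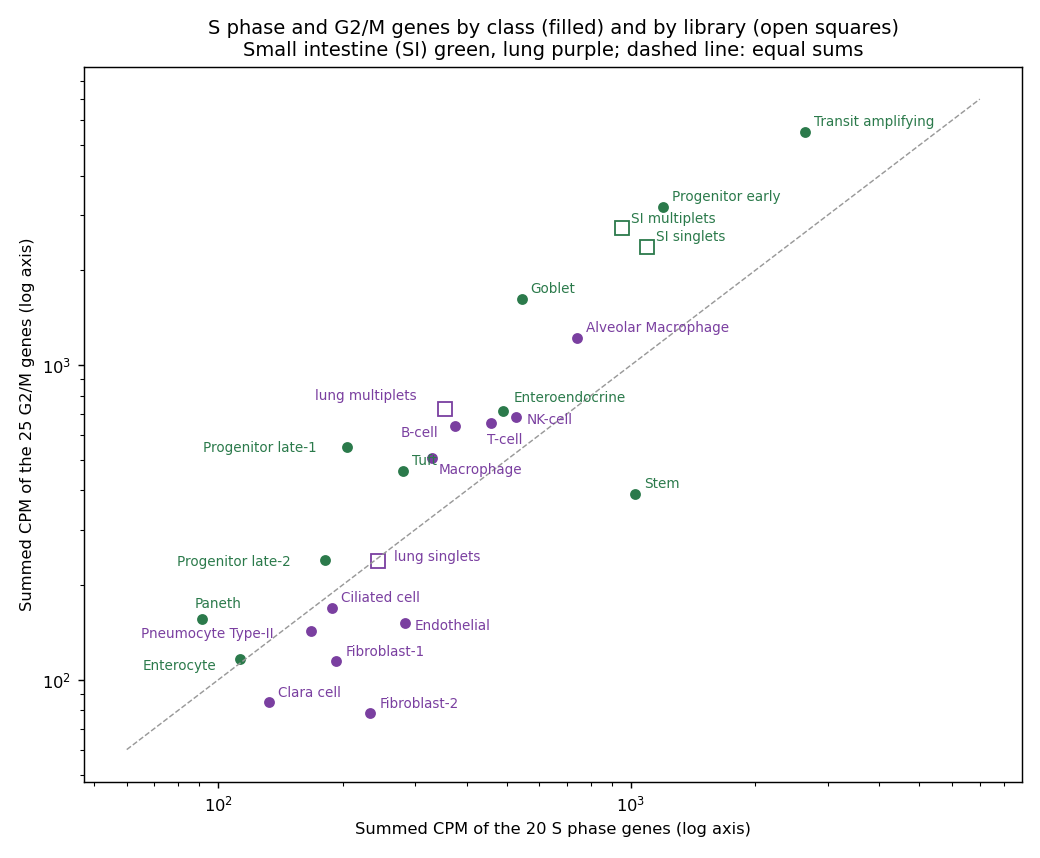
Summed CPM of the 20 S genes (horizontal, log axis) against summed CPM of the 25 G2/M genes (vertical, log axis) for each class of at least 50 barcodes (filled, intestine green, lung purple) and each whole library (open squares), with equal sums as a dashed line. Stem (1021 and 391 CPM) lies below the line and apart from the other intestinal classes, and the lung multiplet library (355 and 725 CPM) lies above the lung singlet library (244 and 238 CPM).

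The lung classes with the highest shares of cycling barcodes were all immune classes. The share was 19.2% in NK-cell (33 of 172, 13.6 to 25.9%), 12.8% in Alveolar Macrophage (29 of 227, 8.73 to 17.8%), 10.5% in B-cell (20 of 190), 10.2% in T-cell (34 of 334) and 8.48% in Macrophage (24 of 283), and the intervals of neighbours in this order overlapped. Most of these calls depended on genes that are not specific to the cycle. Hmgb2 was at 607 CPM in NK-cell, 478 in T-cell, 476 in B-cell, 400 in Alveolar Macrophage and 397 in Macrophage, against 151 CPM in the library. Without Hmgb2, Dut and Slbp, 3 NK-cell, 1 B-cell, 9 T-cell, 7 Macrophage and 23 Alveolar Macrophage barcodes were cycling. Alveolar Macrophage thus had 23 of 29 calls left and NK-cell 3 of 33. Of those 23 barcodes, 7 lacked the marker list of their own class, as described below. All Alveolar Macrophage values in this paragraph are for the whole class and include them. With 5 UMIs for a call, 8.81% of Alveolar Macrophage barcodes and at most 1.80% of each of the other 4 classes were cycling. B-cell, T-cell and NK-cell also had Cenpa, at 142, 84.5 and 45.8 CPM, with Ccnb1 at 1.43 CPM or less. Before thinning, NK-cell and B-cell were the shallowest of these classes, with medians of 3459 and 3313 UMIs. Type II pneumocyte markers (at least 2 UMIs) were read in 19 of 20 cycling and 137 of 170 other B-cell barcodes, and their part in the calls was not tested.

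The class labelled Alveolar Macrophage held a few barcodes that go against its label. Of its 227 barcodes, 9 lacked the alveolar macrophage list (Ear2, Chil3, Fabp1 and Krt79), and 7 of those were cycling. In the 7 the list summed to 12.2 CPM, against 9825 CPM in the 22 cycling barcodes that had it. Type II pneumocyte markers summed to 64121 CPM in the 7 (the list was read in 3 of them) against 940 CPM in the 22, and T cell markers to 316 CPM (in 1 of them) against 19.7 CPM. The 9 barcodes held 40.6% of the class's UMIs of the 46 genes, so the values that follow leave them out unless the whole class is named, a split made after the data were seen.

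The 218 barcodes with the list, 3.58% of lung singlets, held 12.96% of the library's S and 16.8% of its G2/M UMIs, and the 9 without it held 5.31% and 14.2%. Of the 218, 22 were cycling (10.1%, 6.43 to 14.9%). The S and G2/M genes of the 218 summed to 561 and 707 CPM, against 740.1 and 1221 CPM in the whole class and 329 and 508 CPM in Macrophage. By its markers Macrophage was mixed, with 3188 CPM of the neutrophil list and 236 CPM of the dendritic list, each highest there among lung classes. Its interstitial macrophage list was at 627 CPM, against 830 CPM in the whole Alveolar Macrophage class. The part this plays in the ratios was not tested. Mki67 had 73.6 CPM in the 218 against 9.91 CPM in Macrophage (ratio 7.43, 4.94 to 11.6), Top2a 49.5 and 11.8 CPM (4.19, 2.84 to 6.37) and Rrm2 20.4 and 4.57 CPM (4.45). Stmn1 had 183 and 27.8 CPM (6.59). These 4 genes were higher with and without the 9 barcodes, which had 746 CPM of Mki67 and 1103 CPM of Top2a. Ccna2, the cyclin of S phase and G2, had 46 UMIs and Kif11 45 in the 218, and both had 0 in Macrophage. Hmgb2 went the other way, with 239 and 397 CPM (0.602, 0.547 to 0.661), although in the whole class it was at 400.1 CPM. Cenpa had 33.2 and 37.7 CPM (0.880, 0.663 to 1.17) and Mcm4 22.9 and 17.5 CPM (1.30, 0.890 to 1.93), within counting error. Of the 46 genes 24 reached 50 UMIs in the 218 or in Macrophage and 17 of these were higher in the 218 (26.6% of 7276 genes). In the whole class it was 32 of 36, none lower (26.7% and 18.2% of 7454 genes, median 1.12). Genes at or near 0 in Macrophage are counted there only where they are high, so these counts describe and do not support.

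In intestinal multiplets, the S genes were a little below and the G2/M genes a little above their singlet level. None of the 46 genes was higher or lower by more than 1.5-fold, against 1.42% and 3.87% of 11674 genes. The summed ratio of multiplets to singlets was 0.870 (0.860 to 0.881) for S genes and 1.14 (1.13 to 1.15) for G2/M genes, and the median over all genes was 0.933. Under TMM scaling, which moves that median from -0.10 to 0.00 on the log2 scale, the sums were at 0.936 and 1.23, in the same directions. The lowest ratios were those of 4 helicase subunits, from 0.730 for Mcm6 (87.5 CPM in singlets, 63.8 in multiplets) over 0.756 for Mcm2 and 0.771 for Mcm5 to 0.773 for Mcm7, while Mcm3 (0.832) and Mcm4 (0.840) lay among other S genes such as Ccne1 (0.818). Tk1 was the S gene with the highest ratio, 1.19, and Tyms had 0.974. The highest were Cenpf at 84.4 and 120 CPM (1.43, 1.37 to 1.48), Cenpe, a kinetochore motor, at 51.5 and 72.1 CPM (1.40), Nusap1, which binds spindle microtubules (1.33), and Ube2c (1.31), while Cenpa had 1.12 and the checkpoint kinase Bub1 1.13. Ccnb2 (1.0), Cdca3 (1.01) and Kif20a (0.991) did not differ beyond counting error. The ratio of S to G2/M sums was 0.459 in singlets and 0.350 (0.346 to 0.353) in multiplets. Stmn1 had 677 and 561 CPM (0.829). None of 19 further S genes (summed ratio 0.899) and none of 22 further G2/M genes (1.09) passed the limit. Fewer cells of a phase and less RNA per cell cannot be told apart in these sums.

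In lung multiplets 38 of the 46 genes were higher than in lung singlets and none lower, against 15.9% and 13.8% of 15098 genes and a median of 0.963. A gene short of the minimum UMIs in singlets, such as Ccnb1, was counted only through multiplets and could not be called lower. For such genes the counts in this paragraph describe and do not support. With no minimum beyond 1 UMI in each library, 38 of the 46 were again higher and none lower, against 17.2% and 17.5% of 19037 genes. All 25 G2/M genes were higher, with a summed ratio of 3.05 (2.99 to 3.11) and a median of 6.02. Ube2c had 2.91 CPM in singlets and 29.6 CPM in multiplets (10.2, 8.66 to 11.97), Ccnb1 0.724 and 7.11 CPM (9.82, 7.13 to 13.9) and Cenpf 3.18 and 29.7 CPM (9.34). Mki67 had 8.49 and 56.3 CPM (6.63, 6.03 to 7.30) and Top2a 8.77 and 53.6 CPM (6.11). The smallest ratios of the list belonged to Cenpa (1.79), Hmgb2 (1.93) and Bub1 (2.14). Of the 20 S genes 13 were higher, with a summed ratio of 1.46 (1.43 to 1.49) and a median of 1.85. Uhrf1 had 1.48 and 5.18 CPM (3.49, 2.74 to 4.49), Rrm2 3.85 and 11.8 CPM (3.08), and Cdt1 a ratio of 2.38. Mcm6 (1.503) and Pcna (1.51) lay just past the limit, and Cdc6 was the gene with a ratio under 1, at 4.08 and 3.29 CPM (0.806, 0.667 to 0.975). By their summed ratios the 25 G2/M genes thus differed more than the 20 S genes in the lung. The ratio of S to G2/M sums was 1.03 in singlets and 0.490 (0.482 to 0.498) in multiplets. Among other genes of the cycle, 18 of 22 further G2/M genes, 8 of 19 further S genes and 6 of 8 transcription factors were higher. The summed ratios of the further lists lay closer together than those of the members, at 1.44 (1.41 to 1.46) for G2/M and 1.35 (1.31 to 1.38) for S, with medians of 3.25 and 1.37. Cycling lung multiplets were deeper than the others before thinning, with medians of 16535 and 11718 UMIs.

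**Figure D5:**
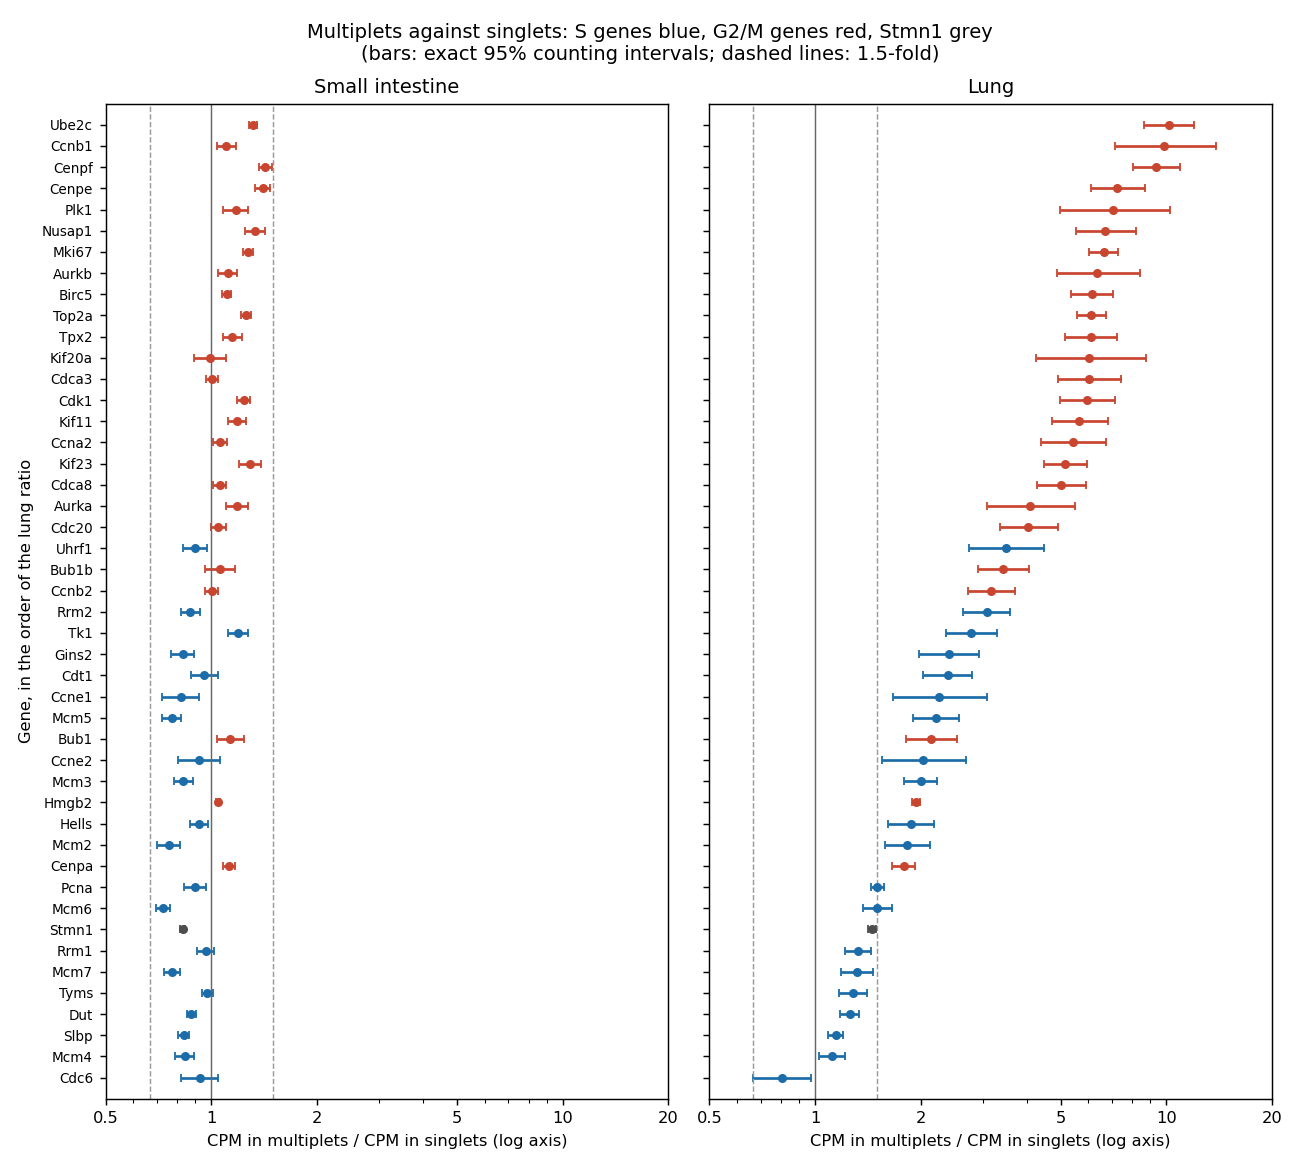
Ratio of CPM in multiplets to CPM in singlets for each of the 46 genes in small intestine (left) and lung (right), on a log axis, with exact 95% counting intervals as bars and dashed lines at 1.5-fold. All intestinal ratios lie between 0.730 and 1.43, while the lung ratios run from 0.806 (Cdc6) to 10.2 (Ube2c), with the G2/M genes (red) above most S genes (blue).

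Marker lists gave the company in which cycle genes occurred in multiplets, which carry no class. With at least 2 UMIs of the stem list at 1500 UMIs, 70.7% of intestinal multiplets (817 of 1156) and 63.7% of singlets (1324 of 2079) were cycling. With the goblet list the shares were 45.6% in multiplets (698 of 1531, 43.1 to 48.1%) and 27.0% in singlets (387 of 1432, 24.7 to 29.4%), and with the enteroendocrine list 43.8% (32 of 73, 32.2 to 56.0%) and 5.83% (7 of 120, 2.38 to 11.7%). The enterocyte list was read with cycling calls in 16.7% of multiplets and 13.5% of singlets. Goblet and enteroendocrine markers thus shared barcodes with cycle genes more often in multiplets, where the marker and the cycle gene can come from different attached cells, and for enterocyte markers the intervals overlapped. At 5 or more marker UMIs the shares were 48.1% against 24.4% for goblet and 42.9% in multiplets for enteroendocrine.

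In lung multiplets, cycling calls occurred with markers of immune cells. With the alveolar macrophage list 13.7% were cycling (138 of 1007, 11.6 to 16.0%), against 4.78% of multiplets without it. The share was 15.9% with the dendritic list (14 of 88), 14.5% with the neutrophil list (56 of 385) and 14.4% with the T cell list (15 of 104). It was 1.09% with the fibroblast list (13 of 1198), 2.51% with the endothelial list (13 of 517), 4.34% with the type II pneumocyte list (87 of 2003) and 6.39% with the club list. Without Hmgb2, Dut and Slbp the share with alveolar macrophage markers was 10.5% and that with dendritic markers 14.8%, while that with neutrophil markers was 4.16%, about the library's 4.19%. Among multiplets with the alveolar macrophage list, 11.02% were G2/M-positive and 6.55% S-positive. Summed fibroblast markers in cycling multiplets were at 0.116 of their level in the others, and alveolar macrophage markers at 1.73. Of the other immune lists, NK was read in 2.53% of cycling and 0.770% of other multiplets. B cell was read in 3.16% and 2.06%, and interstitial macrophage in 18.4% and 9.99%. The neutrophil granule precursor list went the other way, at 0.316% and 0.431%.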

How the data were processed

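Each library was sequenced after Chromium Single Cell 3′ v3 preparation. The deposited values are raw UMI counts per gene and barcode, made with Cell Ranger 4.0.0 on mm10 per the submitters' processing notes; barcode filters and whether counting used strand are not given in the sources used here. Cell classes are the authors' deposited annotation. Of listed barcodes, 5279 of 6710 intestinal and 6084 of 8410 lung singlets, and 3671 of 5607 and 4729 of 8630 multiplets, had counts here; the rest were not analysed here. Totals were 47764845, 56639425, 50645279 and 66277622 UMIs in that order.

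The 46 genes and all lists were chosen with earlier results of these data known, and all members and list genes could be named. Barcodes were thinned to 1500 UMIs, and calls used at least 3 UMIs of a list. Ratios used all UMIs, as CPM, with exact intervals (Clopper-Pearson for shares, Poisson or conditional binomial for sums and ratios, 95%), a limit of 1.5-fold and 50 UMIs in either group. A share of 0 was limited at 3 counts of the total. No test was possible with 1 library per group. The ratio script was tested on simulated data. Scrublet marked 85 intestinal singlets (1.61%) and 126 lung singlets (2.07%), of which 41 and 1 were cycling; they were kept, and no caller was run on multiplets. Without strand, reads of Ccna2, Cdc20, Nusap1, Kif20a, Ube2c, Tk1, Mcm7, Gins2, Ccne2, Slbp, Mki67, Top2a, Cdca8, Plk1, Cenpf and Kif11 cannot be told from those of genes overlapping them on the opposite strand. Alternatives changed the UMI threshold, depth, gene lists, random draw, doublets, scaling, weighting, fold limit, minimum UMIs and single barcodes. Python 3.11.15, numpy 2.4.6, scipy 1.17.1, pandas 2.3.3, scanpy 1.11.5 (Scrublet), matplotlib 3.10.9, R 4.3.3 and edgeR 4.0.16 (TMM factors only) were used.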

Additional observations from a re-analysis of the deposited data

Results flagged for a closer look

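The summed CPM of the 20 S genes differed between multiplets and singlets in opposite directions in the tissues. The ratio of multiplets to singlets was 0.870 in small intestine and 1.46 in lung, and each counting interval lay on its own side of 1. The difference between the tissues was not tested, since each rests on 1 library of each kind. Of the 46 genes, 15 had intervals on opposite sides of 1 in the tissues. The share over all genes was not counted, so whether 15 is many cannot be said. Mcm6 was among the S genes with opposite directions, at 0.730 in small intestine and 1.503 in lung, as was Mcm2, at 0.756 and 1.83.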

How the results depend on the processing

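Shares of cycling barcodes, given here for intestinal singlets, intestinal multiplets, lung singlets and lung multiplets, were 54.0%, 55.4%, 10.7% and 15.4% with 2 UMIs for a call, 30.7%, 34.6%, 0.575% and 3.68% with 5 UMIs, 55.4%, 57.6%, 7.98% and 15.3% at 3000 UMIs per barcode, and 36.2%, 40.5%, 0.855% and 4.19% without Hmgb2, Dut and Slbp. In each setting multiplets stood above singlets and intestine above lung. The intervals of intestinal singlets and multiplets overlapped at 2 UMIs (52.7 to 55.4% and 53.8 to 57.0%) and at 3000 UMIs (54.0 to 56.8% and 55.9 to 59.2%). A second random draw moved none of the 4 beyond its interval, nor did leaving out barcodes marked by Scrublet for the singlet libraries, the ones it was run on. Of 21 classes, the share moved beyond its interval in 20 at 2 UMIs, 17 at 3000 UMIs, 15 at 5 UMIs, 14 without the 3 genes and 2 in the second draw. The S to G2/M ratio with each barcode weighted equally was 0.506 and 0.378 in intestinal singlets and multiplets and 0.574 in lung multiplets. Without the 3 genes it was 0.340 in intestinal multiplets, 1.90 in lung singlets and 0.602 in lung multiplets. Without the 10 barcodes with most UMIs of the 46 genes it was 0.467, 0.355, 1.19 and 0.534, in the order of libraries above. TMM scaling moved the log2 median of all genes from -0.10 to 0.00 in intestine and made 2 of the 46 genes (Cenpf and Cenpe) higher in intestinal multiplets, against 0 otherwise. Of all 11674 genes counted there, 2.23% were higher with TMM and 1.42% without it. The summed ratios of multiplets to singlets in intestine, for all 46, S and G2/M genes, were 1.10, 0.936 and 1.23 with TMM and 1.04, 0.883 and 1.18 with equal weights. In lung they were 2.14, 1.51 and 3.16 with TMM, 1.82, 1.33 and 2.37 with equal weights, and 2.19, 1.53 and 3.41 without the 10 barcodes. With the 4770 lung singlets at least as deep as the shallowest multiplet the G2/M ratio was 3.16; all 5279 intestinal singlets were that deep. Between 31 (over 2-fold) and 39 (TMM) genes were higher in lung multiplets and none lower in any setting. Of all genes counted, 10.5% (over 2-fold) and 16.7% (TMM) were higher, and 6.41% and 12.4% lower. Where a value moved, the cause was not tested. Depth limits low genes: in lung singlets few members reached 50 UMIs in sorted barcodes. No paired analysis was possible because each group is 1 library and the labels carry no replicate numbers.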

Other observations

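Within single classes, other genes differed between cycling and other barcodes, and these barcodes were chosen on the 46 genes. In Transit amplifying, the 1012 cycling barcodes had the histone genes Hist1h1b (ratio 28.7, 9.81 to 139, on 3 UMIs in the 36 others) and Hist1h2ae (20.9, on 1 UMI), and the spindle genes Hmmr (16.0) and Aspm (13.7). In Progenitor early, a class added after the data were seen, Aspm (22.0, 7.41 to 107), Dlgap5 (17.2), Melk (10.7) and Knl1 (10.6), the last a kinetochore scaffold, were highest.

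In lung T-cell barcodes, 34 cycling against 300 others, Pclaf, a partner of Pcna, had 22 and 4 UMIs (44.3, 15.0 to 177) and Gzmk, a granzyme, 11 and 5 UMIs (17.7). In the Alveolar Macrophage class, added after the data were seen, Pclaf had 272 and 9 UMIs (168.1, 87.3 to 372) in 29 cycling and 198 other barcodes, and 143 of the 272 UMIs lay in the 7 cycling barcodes without alveolar macrophage markers. Genes of T cells were also among those with the highest ratios there, with Trbc1 at 62 and 1 UMIs and Cd8b1 at 43 and 1 UMIs, and 1 of the 29 cycling barcodes had the T cell list. Without barcodes with that list 12.4% of the class was cycling (28 of 226).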
